A study of Mus musculus with 4 samples.

Results

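Aortic endothelial cells were taken from single-cell RNA sequencing of the arches of the mouse aorta with their branches and the surrounding tissue. The cells were chosen by 5 measured genes: a kept cell counted as endothelial when it held at least 1 unique molecular identifier (UMI, 1 per captured transcript) of Cdh5 and at least 2 of Pecam1, none of Ptprc or Csf1r and at most 1 of Myh11. Kept cells were barcodes that held between 200 and 6000 genes and in which mitochondrial genes gave no more than 15% of UMIs. The rule selected 136 of 14148 kept cells, or 0.961%. The study compared mice labelled Nrf2Cdh5tKO with mice that carried the floxed Nrf2 allele (Nrf2flox/flox), each without and with atherosclerosis. In the former, Cre under the promoter of Cdh5 removed an exon that Nrf2 needs for its transcriptional activity. Both genotypes came from breeding C57BL/6-Nfe2l2tm1.1Sred/SbisJ animals to B6;129-Tg(Cdh5-cre)1Spe/J animals, a Cre line of mixed background. All mice were males and 3 months old at the start. Atherosclerotic mice had received an adeno-associated viral vector of serotype AAV8 and a high-fat diet for 21 weeks. Normocholesterolemic mice had received saline and standard chow. Each library pooled the aortas of 4 normocholesterolemic or 3 atherosclerotic mice, and living cells were sorted as negative for the dye DAPI. There was 1 library per group, so no difference between groups was tested against the spread between mice, and every 95% interval (given in parentheses after a share or a log2 ratio) covers counting error only, as the UMIs of 1 cell are not independent. The Cdh5 promoter is also active in part of the blood cell lineage, which limits the line as a model of endothelial deletion. Values in the libraries are given throughout in the order normocholesterolemic Nrf2flox/flox, normocholesterolemic labelled Nrf2Cdh5tKO, atherosclerotic Nrf2flox/flox and atherosclerotic labelled Nrf2Cdh5tKO.

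Endothelial cells line every vessel and control the passage of solutes, leukocyte entry, clotting and vascular tone. Cells of the aortic lumen and of arteries carry connexins and elastic-fibre proteins, whereas cells of the small vessels in adventitia and fat carry receptors and binding proteins that take up fatty acids. Nrf2, encoded by Nfe2l2, is a transcription factor that is held down by Keap1 and raises antioxidant, glutathione and iron-storage genes, and arterial endothelium is a known site of its activity under laminar flow.

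The libraries held 7890, 2972, 1020 and 2266 kept cells with median depths of 12133, 14152.5, 10963 and 9200.5 UMIs. They gave 63, 35, 20 and 18 endothelial cells, with 1162 to 36553 UMIs each. These cells were 0.798, 1.18, 1.96 and 0.794% of kept cells. The exact Clopper-Pearson 95% intervals ran from 0.614 to 1.02%, 0.822 to 1.63%, 1.20 to 3.01% and 0.471 to 1.25%. Under this rule, the share of the atherosclerotic Nrf2flox/flox library was the highest. Its interval lay above that of the normocholesterolemic Nrf2flox/flox library and overlapped those of both other libraries. Endothelial cells were shallower than the other kept cells, with a median of 5815.5 against 11990 UMIs and 2186 against 3275 genes. Summed over cells, the libraries gave 369342, 314435, 146931 and 171643 endothelial UMIs, so that a count of 0 allows up to 8.12, 9.54, 20.4 and 17.5 CPM (UMIs per 1000000 UMIs of the endothelial cells of a library; 3 counts of the total). No barcode was shared between the endothelial cells of any pair of libraries, and the kept cells shared 22 barcodes over all pairs. None of the 136 cells was called a doublet by Scrublet, which marked 306 of all kept cells. Just inside the rule, 11 cells held exactly 2 UMIs of Pecam1 and 15 exactly 1 of Cdh5. Just outside it, 28 cells failed only through a single UMI of Pecam1, 421 only through 0 UMIs of Cdh5, and 25 of 161 cells with both genes were left out for Ptprc (15), Csf1r (9) or Myh11 (9), a cell counting under each gene it held. The 421 cells without Cdh5 numbered 272, 102, 10 and 37 in the libraries. Counting them would put both normocholesterolemic shares above both atherosclerotic ones. Whether they were endothelial was not tested.

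**Figure D1:**
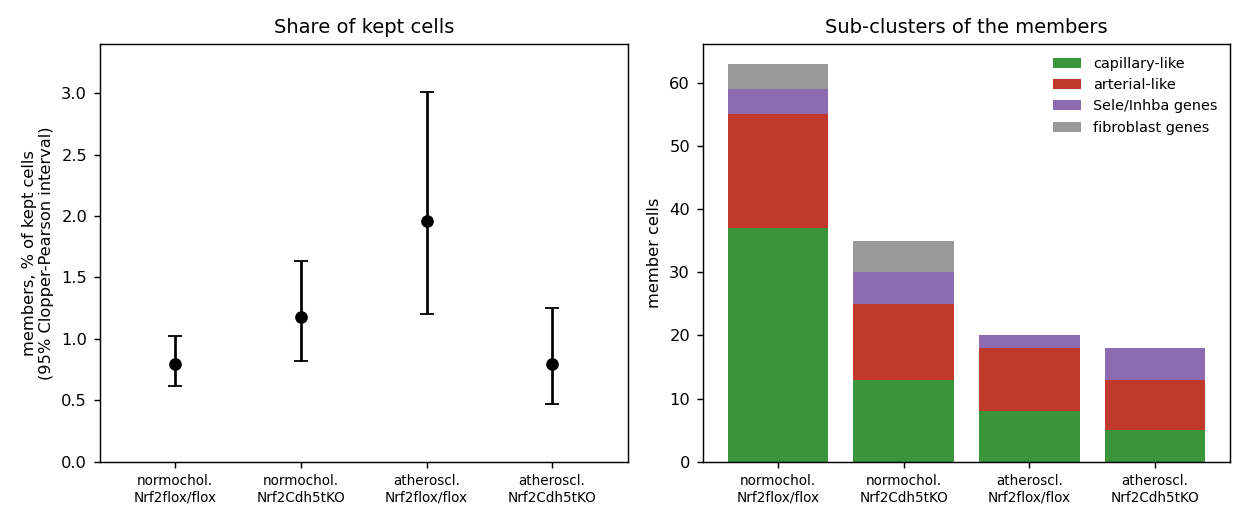
Left, endothelial cells as a percentage of kept cells in each of the 4 libraries (points, with 95% Clopper-Pearson intervals); right, the number of endothelial cells in each library, split by sub-cluster (stacked bars). The share ran from 0.794% to 1.96%, and the cells with fibroblast genes appeared in the normocholesterolemic libraries.

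The label was checked against endothelial markers. Vwf, which encodes von Willebrand factor, was detected in 59 of 136 cells (43.4%), Kdr, a receptor for VEGF, in 73 (53.7%), Cldn5, a tight-junction protein, in 101 (74.3%) and Gja5, an arterial connexin, in 29 (21.3%). Among 1491 smooth muscle cells (at least 10 UMIs of Myh11, none of Cdh5 or Pecam1), which lack these genes, the same shares were 1.07, 0.201, 0.335 and 0.201% at a median of 15611 UMIs against 5815.5. With every cell thinned to 1000 UMIs, the shares were 27.2, 28.7, 45.6 and 5.15% of endothelial cells and 0.0671, 0, 0.0671 and 0.0671% of smooth muscle cells. Every marker thus lay above that background. Gja5 and Vwf were found in a minority of the cells, while Gpihbp1, a protein of capillary endothelium, was found in 50% (thinned, 41.9%; smooth muscle cells, 0.134%), so that aortic names the tissue dissected, and the cells selected by the rule hold small-vessel endothelium beside arterial endothelium.

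The genes that set the cells apart from the 14012 other kept cells are given as a description, since the cells were chosen by measured genes. Of 6410 genes with at least 20 UMIs in the endothelial cells, 936 (14.6%) were higher and 325 (5.07%) lower by a log2 ratio of CPM of 1 or more. Over UMIs summed across the libraries, Emcn, the sialomucin endomucin, led the list with 499 against 1.20 CPM, a log2 ratio of 8.70 that ran from 8.06 to 9.23 over the 4 libraries. Among the 25 leading genes it ranked first in the normocholesterolemic Nrf2flox/flox library alone, while Selp (9.71), Sox17 (8.45) and Cyyr1 (9.35) had the highest ratios in the other libraries, in the order above. In the summed UMIs it was followed by Sox17 (8.49) and Sox18 (7.98), transcription factors of endothelial fate, by Tie1 (8.26), a receptor of the angiopoietin system, and by Selp (8.33), the P-selectin that captures leukocytes. Cldn5 (8.06), Podxl (8.04), Egfl7 (7.82), Rasip1 (7.76) and Vwf (7.59) belonged to the same 25 genes, as did Nos3 (7.13), the endothelial nitric oxide synthase, and Ptprb (7.0), the vascular phosphatase VE-PTP. The remaining leaders were Myct1, Cyyr1, Gpihbp1, Adgrf5, Mmrn2, Stmn2, Palmd, Ushbp1, Gkn3, Bmx, Kdr, Cyp4b1 and Clic5, with log2 ratios of 6.57 or more. Of 26 pan-endothelial genes, 25 were higher by a log2 ratio of 1 or more and the remaining one was Cd34, a sialomucin of fibroblasts as well, with 383 against 431 CPM. All 4 MHC class II genes with enough UMIs were lower, and the 5 proliferation genes stayed under 20 UMIs each, with Top2a the most abundant at 7.

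Promoter sequences were read from RefSeq windows on GRCm38.p6 (250 bases before the annotated start) to show where letters of endothelial transcription factor families fall. The table held windows for 15 of the 25 leading genes. CAGGAA, an ETS-type motif searched on both strands, was found in 9 of them (Adgrf5, Bmx, Cyyr1, Egfl7, Emcn, Myct1, Rasip1, Tie1, Ushbp1) and in 25.7% of all 32851 windows. CCGGAA, another ETS-type motif, was found in 1 (Kdr) and in 12.03% of all windows. AACAAT, a SOX-type motif, was found in 2 (Emcn and Ushbp1) and in 9.42% of all. CAGGAA and CCGGAA share the letters GGAA, no site can match both, and a match is a description of the window only. The 4 windows below belong to genes on which the results turn: Emcn leads the comparison with other cells, Cytl1 and Timp4 are among the leading genes of the arterial and the capillary sub-cluster described below, and Edn1 was higher in both atherosclerotic libraries. Each is written 5′ to 3′ on the strand of its gene, with matches of the motifs in capitals. They lie at chr3:137340828-137341077 (plus strand), chr5:37735269-37735518 (plus), chr6:115252206-115252455 (minus) and chr13:42301226-42301475 (plus).
Emcn: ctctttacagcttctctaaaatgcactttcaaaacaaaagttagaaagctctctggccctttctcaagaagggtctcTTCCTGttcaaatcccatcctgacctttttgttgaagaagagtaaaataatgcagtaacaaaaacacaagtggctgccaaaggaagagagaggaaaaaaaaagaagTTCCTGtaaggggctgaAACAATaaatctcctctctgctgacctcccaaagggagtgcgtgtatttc
Cytl1: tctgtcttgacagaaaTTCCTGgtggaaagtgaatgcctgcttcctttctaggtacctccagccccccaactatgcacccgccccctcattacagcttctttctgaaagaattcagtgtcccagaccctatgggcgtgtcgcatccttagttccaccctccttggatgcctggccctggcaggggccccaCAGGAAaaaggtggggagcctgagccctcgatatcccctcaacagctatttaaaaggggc
Timp4: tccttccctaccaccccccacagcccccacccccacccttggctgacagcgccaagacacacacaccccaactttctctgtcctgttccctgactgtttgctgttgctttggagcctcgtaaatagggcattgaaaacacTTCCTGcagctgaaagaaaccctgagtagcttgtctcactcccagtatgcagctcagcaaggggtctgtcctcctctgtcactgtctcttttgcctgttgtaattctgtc
Edn1: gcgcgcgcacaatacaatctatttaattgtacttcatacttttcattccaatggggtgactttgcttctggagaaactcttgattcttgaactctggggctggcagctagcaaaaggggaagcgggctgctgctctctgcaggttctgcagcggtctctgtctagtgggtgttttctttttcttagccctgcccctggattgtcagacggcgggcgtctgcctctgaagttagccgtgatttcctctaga
Emcn held 2 matches of CAGGAA and 1 of AACAAT, Cytl1 2 and Timp4 1 of CAGGAA, and Edn1 none of the motifs searched.

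Clustering of the 136 cells split them into 4 sub-clusters, which are described by genes of the cells clustered and so carry no test. The largest held 63 cells (46.3%) and met all 11 of the markers set for capillary endothelium. Its leading genes were Slc28a2, with a log2 ratio to the other endothelial cells of 7.33 (4.80 to 12.66), Rbp7 (5.94), Gpihbp1 (5.79), Timp4 (5.72), Rgcc (5.66) and Car4 (5.64). Gpihbp1 holds lipoprotein lipase at the luminal surface, Car4 is a carbonic anhydrase of the capillary wall and Timp4 an inhibitor of metalloproteinases. Fabp4, a fatty acid-binding protein, reached 39170.1 CPM in these cells against 41.3 in the second sub-cluster, and Cd36, a fatty acid transporter, 3852 against 0. Detection of Fabp4 says little, since 61.0% of endothelial and 79.5% of smooth muscle cells held a UMI of it (54.4 and 25.4% after thinning), so its levels and not its shares are used here. Pparg and Aqp7, which fat cells also use, were among the 10 leading genes, while the list of fat cell markers summed to 55.5 CPM. Gpihbp1 was at 0 in 0, 1, 1 and 2 of these cells in the 4 libraries. The 2 such cells of the atherosclerotic library labelled Nrf2Cdh5tKO gave 8625 of its 21893 UMIs in this sub-cluster, held 17 UMIs of Vwf and 17 of Edn1 and none of Timp4, and had 42 of Fabp4, which is among the capillary markers. The main ratios within the sub-cluster are therefore also given for its cells with a UMI of Gpihbp1, a limit chosen after the data were seen. The median depth of the sub-cluster was 4431 UMIs.

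The second sub-cluster held 48 cells (35.3%) and met 6 of 10 arterial markers: Gja5, Gja4, Efnb2, Bmx, Fbln5 and Mecom. It was led by Gkn3, with a log2 ratio of 4.89 (4.05 to 5.87), Adh7 (4.82), Klk10 (4.20), Ephx2 (3.98), Krt80 (3.75) and Cytl1 (3.57). Ephx2 encodes soluble epoxide hydrolase, and Cytl1 a small secreted protein that was detected in 97.9% of these cells. Between the arterial endothelial-like and the capillary endothelial-like cells, the log2 ratio was 3.83 (3.15 to 4.61) for Vwf, 4.58 (4.18 to 5.02) for Clu (clusterin), 4.20 (3.51 to 5.00) for Edn1 (endothelin-1) and 7.30 (5.75 to 9.58) for Vcam1, an adhesion receptor for leukocytes. These ratios include the 2 cells without Gpihbp1 of the atherosclerotic library labelled Nrf2Cdh5tKO. Those cells held 17 UMIs of Vwf, 17 of Edn1 and 38 of the 51 of Clu in the capillary endothelial-like cells. It was -5.97 (-7.43 to -4.84) for Kdr and -2.48 (-2.75 to -2.22) for Cldn5. Gja5 had no UMI in the capillary endothelial-like cells, which puts the ratio at a minimum of 4.09. Sox17 and Notch1 did not follow the split: Sox17 stood at 260.0 CPM in capillary endothelial-like and 115 in arterial endothelial-like cells, and Notch1 at 201 and 151. Of the arterial markers, Sox17 and Dll4 were met by the capillary endothelial-like sub-cluster and not by the arterial endothelial-like one.

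The third sub-cluster held 16 cells and had among its leading genes Sele, with a log2 ratio of 9.07 (6.57 to 14.38), H19, Inhba (7.35), Timp1 (4.68) and Rgs16 (4.31). Sele is E-selectin, which activated endothelium presents to leukocytes, Inhba is a subunit of activin, and H19 a noncoding RNA that had no UMI in the other endothelial cells. A UMI of Sele was found in 62.5% of the cells, of Timp1 in 37.5%, of H19 in 31.2% and of Inhba in 25%. The cells were mixed: the lymphatic genes Prox1 and Mmrn1 summed to 20 and 28 UMIs in them, and 24 of the 28 Mmrn1 UMIs came from 1 cell. The fibroblast markers summed to 21577 CPM in them, against 33878 in the fourth sub-cluster, so fibroblast RNA was not confined to the latter. The sub-cluster met 4 lymphatic, 3 venous, 3 smooth muscle and 2 fibroblast markers (Dcn and Col3a1). The rule for names asked for at least 3 markers met and took the list with the highest mean log2 ratio. By it the cells would be called lymphatic endothelial, with a mean of 3.11. Since they met markers of several cell types, that name was not used, and they are called the Sele and Inhba sub-cluster.

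The fourth held 9 cells with a median of 17924 UMIs, which met all 6 fibroblast markers and were led by Il33, with a log2 ratio of 7.77 (5.87 to 10.84), Tnfaip6 (6.84), Igf1 (6.20), Fbln1 (6.13), Gpx3 (6.04) and Ogn (6.01). Dcn, the matrix proteoglycan decorin, stood at 11134 CPM, next to 9396 in all other kept cells. The rule did not use fibroblast genes, so these barcodes, with 45 UMIs of Cdh5 and 114 of Pecam1 among them, passed it. Whether each held 1 cell or a pair was not tested beyond the doublet calls. Some of the results below are also given without them.

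**Figure D2:**
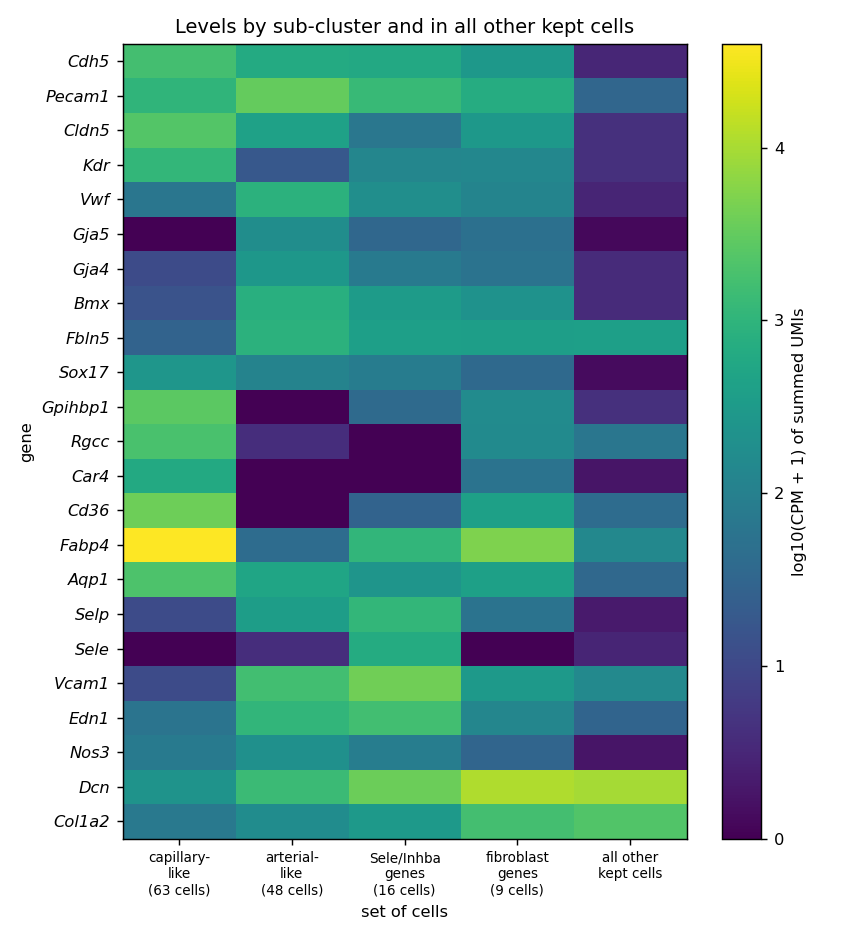
Levels of marker genes in the 4 sub-clusters and in all other kept cells, as log10(CPM + 1) of summed UMIs (colour; rows are genes, columns sets of cells). Fabp4 reached 39170.1 CPM in the capillary endothelial-like cells and 41.3 in the arterial endothelial-like cells, and Dcn 11134 CPM in the cells with fibroblast genes.

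The mixture of sub-clusters was counted in each library. Capillary endothelial-like cells numbered 37, 13, 8 and 5, or 58.7, 37.1, 40 and 27.8% of the endothelial cells of each library, with 95% Clopper-Pearson intervals of 45.6 to 71.0%, 21.5 to 55.1%, 19.1 to 63.9% and 9.69 to 53.5%. Arterial endothelial-like cells numbered 18, 12, 10 and 8, or 28.6, 34.3, 50 and 44.4%, with intervals of 17.9 to 41.3%, 19.1 to 52.2%, 27.2 to 72.8% and 21.5 to 69.2%. The Sele and Inhba sub-cluster had 4, 5, 2 and 5 cells and that with fibroblast genes 4, 5, 0 and 0. The intervals of both shares overlapped between all libraries. By UMIs the mixture differed more: the Sele and Inhba sub-cluster gave 8.25, 18.3, 17.7 and 57.9% of the endothelial UMIs of the libraries, the capillary endothelial-like cells 45.3, 23.2, 17.7 and 12.8%, the arterial endothelial-like cells 31.9, 24.1, 64.6 and 29.4% and the cells with fibroblast genes 14.5, 34.4, 0 and 0%. Most of the summed profile of the atherosclerotic library labelled Nrf2Cdh5tKO thus came from 5 cells of the mixed Sele and Inhba sub-cluster. Since a summed level moves with the mixture, ratios over all endothelial cells are given for some genes together with those within a sub-cluster. For the other genes, the part of the mixture in the ratios was not tested.

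Genes of other cell types were counted in every library. The 8 fibroblast markers, of which Mgp was the most abundant and is also made by arterial endothelium, summed to 9376, 17279, 8773 and 17880.1 CPM, and the 8 smooth muscle markers, led by Acta2, to 809.5, 426, 633 and 3274 CPM. In the atherosclerotic library labelled Nrf2Cdh5tKO, 384 UMIs of Acta2 were found, with 175 of all 645 in 1 cell. Of the 4 smooth muscle genes with at least 20 UMIs, 3 were higher in this library than in the atherosclerotic Nrf2flox/flox library and 3 than in the normocholesterolemic library of the same label, with median ratios of 1.85 and 2.33. Of all genes tested, 12.4% and 9.76% were higher in these pairs. The list summed to 2671 CPM in the Sele and Inhba sub-cluster. Cnn1, which defines contractile smooth muscle, had 9, 3, 1 and 1 UMIs, too few to be tested. The 10 leukocyte markers summed to 241, 254, 319.9 and 198 CPM. Of them, 3 were at 0: Cd79a, and Ptprc and Csf1r, which the rule that chose the cells sets to 0. The 8 platelet and red cell markers summed to 37.9, 130.4, 74.9 and 58.3 CPM. The 6 pericyte markers, with Rgs5 the most abundant, summed to 533, 102, 74.9 and 29.1 CPM, and the 6 heart muscle markers to 5.42, 279.9, 6.81 and 0 CPM, where 1 cell held 20 of 23 UMIs of Tnnt2. Mesothelial, fat and nerve markers summed to at most 24.4 CPM in any library, with 3 of 4, 1 of 5 and 3 of 4 at 0. Gm42418, a transcript that overlaps ribosomal RNA sequence, took 1.28, 3.68, 7.44 and 2.82% of endothelial UMIs and 0.362, 1.56, 1.57 and 1.51% of those of the other kept cells. It was lowest in the normocholesterolemic Nrf2flox/flox library in both, and its part in the ratios below was not tested.

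Nfe2l2, the gene targeted in the knockout, was examined to check the labels (mm10, chr2:75675513-75704641, minus strand, ENSMUSG00000015839). It had 57, 107, 28 and 61 UMIs, which are 154, 340.3, 191 and 355 CPM. Both libraries labelled Nrf2Cdh5tKO lay above both Nrf2flox/flox libraries, so the targeted gene was higher and not lower under the knockout label. The log2 ratio of knockout to flox label was 1.14 (0.66 to 1.63) for the normocholesterolemic pair and 0.90 (0.23 to 1.60) for the atherosclerotic pair. Within arterial endothelial-like cells it was 1.59 (0.68 to 2.56) and 0.99 (-0.02 to 2.01), and within capillary endothelial-like cells 0.57 (-0.28 to 1.38) and 0.47 (-1.33 to 2.32), or 0.61 (-0.23 to 1.43) and -0.69 (-4.03 to 1.79) in those with Gpihbp1. Without the Sele and Inhba sub-cluster it was 0.90 (0.39 to 1.43) and 0.86 (-0.00 to 1.72). In all other kept cells it was 0.13 and 0.22. The counts come from the 3′ end of transcripts and cannot tell a transcript that lacks the deleted exon from an intact one, so they do not check the deletion. Every direction between genotypes below is one between labels. One cell held at most 4.74% of the UMIs.

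The Nrf2 list held 22 genes, of which 15 had at least 20 endothelial UMIs. In the normocholesterolemic pair, 2 were higher and 1 lower by a log2 ratio of 1 or more under the knockout label, where 8.94% of all genes were higher and 6.47% lower. In the atherosclerotic pair, 3 were higher and 1 lower, against 12.4% and 15.8% of all genes. No gene of the list passed in the same direction in both genotype pairs. The list medians were -0.00343 and 0.10, beside 0.04 and -0.00188 over all 6410 genes.

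Nqo1, a quinone reductase and classical target, had 1, 1, 0 and 1 UMIs and could not be compared at this depth. Gclm, a subunit of the enzyme that starts glutathione synthesis, stood at 59.6, 92.2, 68.1 and 46.6 CPM from 22, 29, 10 and 8 UMIs, with log2 ratios of 0.63 (-0.22 to 1.50) and -0.55 (-2.09 to 0.95). Txnrd1, thioredoxin reductase, stood at 73.1, 54.1, 68.1 and 69.9 CPM from 27, 17, 10 and 12 UMIs, and Hmox1, which degrades haem, at 56.9, 31.8, 13.6 and 29.1 CPM from 21, 10, 2 and 5 UMIs. The genotype ratios were -0.44 (-1.40 to 0.49) and 0.04 (-1.30 to 1.41) for Txnrd1 and -0.84 (-2.09 to 0.31) and 1.10 (-1.51 to 4.49) for Hmox1, so that the intervals of Gclm, Txnrd1 and Hmox1 included 0 in both pairs. Fth1, the heavy chain of ferritin, stood at 3704, 3189.8, 1518 and 4702 CPM from 1368, 1003, 223 and 807 UMIs. Its log2 ratio between labels was -0.22 (-0.33 to -0.10) without and 1.63 (1.42 to 1.85) with atherosclerosis, but 1 cell held 515 of 3401 UMIs. Gstm1, a glutathione transferase, stood at 382, 347, 116 and 40.8 CPM from 141, 109, 17 and 7 UMIs and was lower in both atherosclerotic libraries than in both normocholesterolemic ones, with log2 ratios between diets of -1.72 (-2.54 to -0.99) and -3.09 (-4.44 to -2.0). Slc40a1, the iron exporter ferroportin, had no endothelial UMI in any library.

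**Figure D3:**
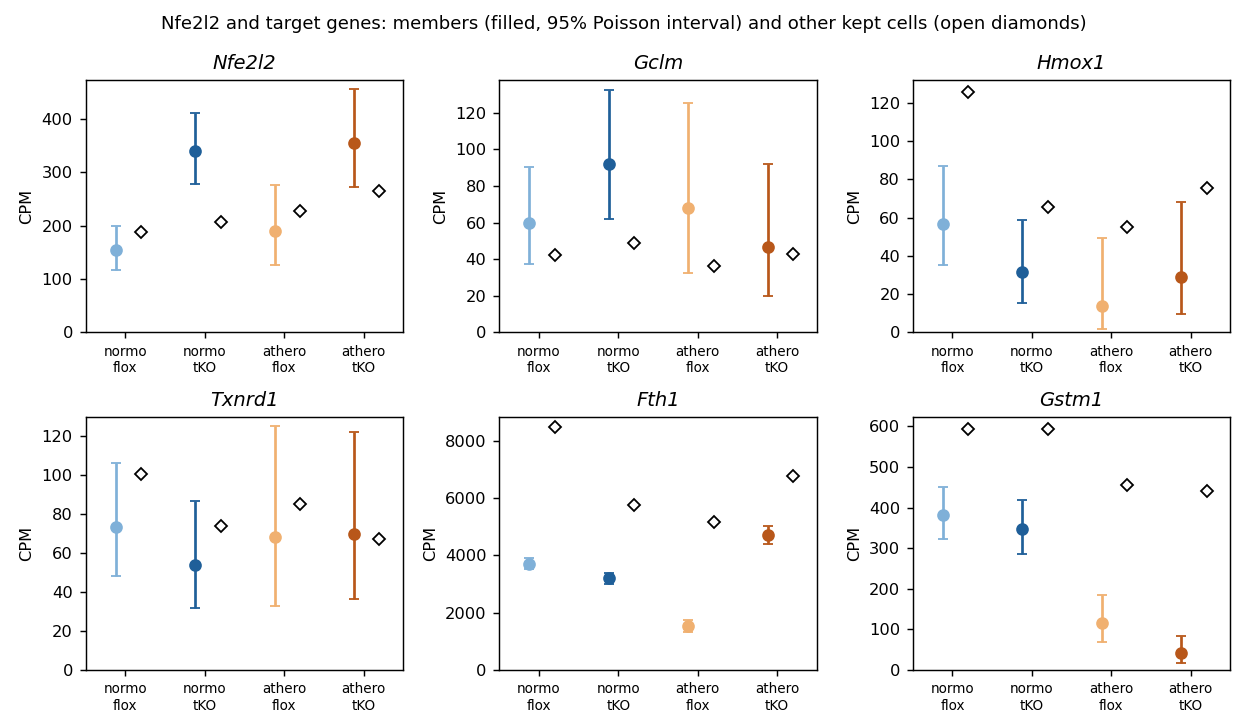
Nfe2l2 and genes of its pathway in each library, in CPM of summed UMIs: filled points are endothelial cells with 95% Poisson intervals, open diamonds all other kept cells. Nfe2l2 stood at 154, 340.3, 191 and 355 CPM in the endothelial cells, above the flox libraries under both knockout labels, while the intervals of Gclm, Hmox1 and Txnrd1 overlapped between libraries.

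Of 16 genes of junctions and caveolae, 13 stood above the other kept cells by a log2 ratio of 1 or more, beside 14.6% of all genes tested. Cavin2, a coat protein of caveolae, stood at 1489, 1422, 1286 and 705 CPM from 550, 447, 189 and 121 UMIs, and Cav1, the main caveolar protein, at 994, 992, 939 and 419 CPM from 367, 312, 138 and 72 UMIs. Both were lowest in the atherosclerotic library labelled Nrf2Cdh5tKO. Cldn5 stood at 1476, 760.1, 429 and 209.7 CPM from 545, 239, 63 and 36 UMIs, and in capillary endothelial-like cells alone at 2927, 1806, 1346 and 1051 CPM. It stood at 2927, 1862, 1259.9 and 1733 CPM in those of them with Gpihbp1.

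Among leukocyte adhesion genes, Vcam1 stood at 793, 1278, 973 and 3595 CPM from 293, 402, 143 and 617 UMIs and was highest in the atherosclerotic library labelled Nrf2Cdh5tKO. One cell held 22.4% of all its UMIs, and within arterial endothelial-like cells the levels were 2121, 1639.5, 1128 and 1488 CPM, where the normocholesterolemic Nrf2flox/flox library was highest. Icam1, a ligand of leukocyte integrins, stood at 244, 267, 463 and 209.7 CPM from 90, 84, 68 and 36 UMIs. Sele had 6, 87, 17 and 36 UMIs, of which 1 cell held 67. Cxcl12, a chemokine that retains leukocytes, was higher in capillary endothelial-like cells, with 1526 against 133 CPM in arterial endothelial-like cells.

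Of genes that set vascular tone, Nos3 stood at 122, 127, 123 and 75.7 CPM from 45, 40, 18 and 13 UMIs, Ece1, which cleaves the precursor of endothelin, at 452, 499, 1021 and 787 CPM from 167, 157, 150 and 135 UMIs, and Ramp2, a part of the adrenomedullin receptor, at 923, 646, 926 and 949.6 CPM from 341, 203, 136 and 163 UMIs. The Poisson intervals of Nos3 overlapped between the libraries, whereas Ece1 was higher in both atherosclerotic libraries than in both normocholesterolemic ones. Klf2, a transcription factor induced by laminar flow, stood at 2147, 890.5, 681 and 1625 CPM from 793, 280, 100 and 279 UMIs, and its relative Klf4 at 999, 665, 306 and 687 CPM from 369, 209, 45 and 118 UMIs. Both were highest in the normocholesterolemic Nrf2flox/flox library and lowest in the atherosclerotic Nrf2flox/flox library, with the libraries labelled Nrf2Cdh5tKO between them. The immediate early and heat shock genes had the same highest and lowest libraries, with sums of 21863, 14073, 10127 and 12153 CPM. A link between the 2 patterns was not tested.

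Among receptors of VEGF and angiopoietins, Kdr stood at 449, 493, 191 and 157 CPM from 166, 155, 28 and 27 UMIs, Flt1, its decoy relative, at 809.5, 474, 381 and 297 CPM from 299, 149, 56 and 51 UMIs, and Tek, the receptor Tie2, at 241, 270.3, 272 and 128 CPM from 89, 85, 40 and 22 UMIs. Kdr and Flt1 were lower in both atherosclerotic libraries, and within each label so was the share of capillary endothelial-like cells. Genes of lipid handling were led by Fabp4 at 20138.5, 11156.5, 4730.1 and 4212 CPM from 7438, 3508, 695 and 723 UMIs. Within the capillary endothelial-like cells, its levels were 43234, 37525, 26573 and 28548 CPM, and the log2 ratios between diets were -0.70 (-0.82 to -0.59) and -0.39 (-0.52 to -0.27) there, smaller in size than -2.09 (-2.20 to -1.98) and -1.41 (-1.52 to -1.29) over all cells. In the capillary endothelial-like cells with Gpihbp1 they were -0.69 (-0.81 to -0.58) and 0.23 (0.10 to 0.36), so that the second turned sign. Apoe, a lipoprotein component that macrophages and other cells also make, stood at 4535, 5066, 3314 and 3105 CPM from 1675, 1593, 487 and 533 UMIs.

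The genotype comparison asked how endothelial transcripts differ between the knockout and the flox label. In the pairs taken one at a time, 572 genes were higher and 414 lower under the knockout label in the normocholesterolemic pair, and 727 and 930 in the atherosclerotic pair. With both pairs past a log2 ratio of 1 in the same direction and both 95% intervals leaving out 0, 19 genes (0.324% of 5872) were higher and 19 (0.324%) lower. Without the deepest cell of each library, 8 were higher and 13 lower. With cells of 1 UMI of Pecam1 or more, 51 were higher and 18 lower. Each call was also tried without a single cell, that which held the most UMIs of the gene in a library, for each library in turn. This ended all 19 calls of higher genes and 16 of the 19 calls of lower genes, and Cep83, Klf10 and Rgcc kept theirs. Without the Sele and Inhba sub-cluster, a setting chosen after the data were seen that leaves fewer cells, 4 genes were higher and 4 lower, and 0 of the 19 higher and 2 of the 19 lower genes (Cd74 and Gm26917) were among them. Nfe2l2 was not among the called genes, since it missed the fold in the atherosclerotic pair, although its ratio there passed 1 in 4 other settings, at 1.07 with cells of 1 UMI of Pecam1 or more, 1.38 with cells weighted equally, 1.22 without the deepest cells and 1.19 without the cell of the atherosclerotic Nrf2flox/flox library that held most of it.

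The genes higher under both knockout labels included Selp, Pdgfa and Ptgis. Selp stood at 83.9, 207, 517 and 1177 CPM from 31, 65, 76 and 202 UMIs, with log2 ratios of 1.30 (0.66 to 1.97) and 1.19 (0.80 to 1.59), against -2.05 and -1.17 in all other kept cells, and 1 cell held 28.1% of its UMIs. Without that cell, with 105 of 202 UMIs of the atherosclerotic library labelled Nrf2Cdh5tKO, the second ratio was 0.47 (0.03 to 0.93). Of its UMIs in that library, 181 of 202 came from the 5 cells of the Sele and Inhba sub-cluster, and without that sub-cluster the atherosclerotic ratio turned to -0.48 (-1.29 to 0.28). Among arterial endothelial-like cells it was -0.53 (-1.40 to 0.27). Pdgfa, a ligand that recruits mural cells, stood at 29.8, 70.0, 88.5 and 338 CPM from 11, 22, 13 and 58 UMIs, with ratios of 1.23 (0.13 to 2.42) and 1.93 (1.05 to 2.93), and Ptgis, which makes prostacyclin, at 125, 267, 170.1 and 431 CPM from 46, 84, 25 and 74 UMIs, with ratios of 1.10 (0.57 to 1.65) and 1.34 (0.67 to 2.06). Without 1 cell of the knockout-labelled library, the normocholesterolemic ratio of Pdgfa was 0.72 (-0.50 to 1.98) and the atherosclerotic one of Ptgis 0.69 (-0.08 to 1.48). Alcam, an adhesion molecule, had 2, 13, 1 and 18 UMIs, so that its ratios of 2.93 (0.79 to 6.12) and 3.95 (1.28 to 9.33) have wide intervals.

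Fbn1 (fibrillin-1; 70.4, 258, 61.3 and 239 CPM), Gpc6 (a glypican; 29.8, 85.9, 54.4 and 151 CPM) and Col3a1 (collagen III; 271, 627, 157 and 1893 CPM) are genes of matrix-forming cells. Their presence in the list went with fibroblast markers, which summed higher in both libraries labelled Nrf2Cdh5tKO, as did the fibroblast gene Col1a2 (123, 219, 16 and 55 UMIs), and the part of other cells in them was not tested. Leaving out the sub-cluster with fibroblast genes turned the normocholesterolemic ratio of Col3a1 to -1.36 (-2.32 to -0.49), and 46.2% of its UMIs lay in 1 cell. Uap1, an enzyme of sugar nucleotide synthesis, also turned sign there, at -0.09 (-1.08 to 0.87). Ganab, Rnd3 and Plac8 completed the 10 leading genes in which no cell held over 50% of the UMIs. Ganab, a glucosidase of the endoplasmic reticulum, had 10, 22, 6 and 19 UMIs, Rnd3, a small GTPase, 9, 18, 3 and 23 and Plac8 0, 16, 0 and 8. Cxcl5, Ankrd1 and Prss23 met the fold but had more than 50% of their UMIs in 1 cell. Without the sub-cluster with fibroblast genes, 10 genes were higher and 17 lower in both pairs, and Pdgfa, Selp and Ptgis were among those that were higher, with 1.71 (0.33 to 3.25) and 1.93 (1.05 to 2.93) for Pdgfa. Leaving out single cells there ended all 10 calls of higher genes, these 3 included, and 16 of the 17 calls of lower genes, and Cep83 kept its call.

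The genes lower under both knockout labels were mostly sparse. Angpt2, the antagonist of the receptor Tie2, had 13, 1, 10 and 1 UMIs and ratios of -3.47 (-8.88 to -0.73) and -3.55 (-8.99 to -0.73). Cd74, the invariant chain of MHC class II, stood at 149, 44.5, 218 and 35.0 CPM from 55, 14, 32 and 6 UMIs with ratios of -1.74 (-2.70 to -0.88) and -2.64 (-4.19 to -1.36). In the atherosclerotic Nrf2flox/flox library 1 cell held 27 of 32 UMIs of Cd74, and without it the second ratio was -0.13 (-2.11 to 1.92). In all other kept cells the ratios of Cd74 were -0.82 and 0.16, at levels of 2496, 1413, 2698 and 3021 CPM, and the part of RNA from those cells in the endothelial counts was not tested. Of the 4 MHC class II genes with at least 20 UMIs, 4 were lower under the knockout label without and 3 with atherosclerosis, beside 6.47 and 15.8% of all genes tested. Rassf1, a Ras-association protein, stood at 173, 66.8, 129 and 40.8 CPM from 64, 21, 19 and 7 UMIs, with ratios of -1.38 (-2.16 to -0.64) and -1.66 (-3.16 to -0.35), and Mfng, a sugar transferase that modifies Notch receptors, had 24, 7, 9 and 2 UMIs. Cep83, a centriole protein, had 22, 3, 9 and 1 UMIs, Atad2, a chromatin factor, had 18, 4, 7 and 1, and Sun1, of the nuclear envelope, had 18, 4, 7 and 1. Mcf2l, an exchange factor for small GTPases, had 26, 8, 9 and 2 UMIs. These genes were lower in the knockout-labelled library of each pair from few counts, and without 1 cell the calls of all but Cep83 ended. Lipg, the endothelial lipase, had 11, 0, 20 and 9 and Car3, a carbonic anhydrase of fat and muscle, 71, 14, 8 and 0 UMIs. In the atherosclerotic Nrf2flox/flox library, 1 cell held 7 of 10 UMIs of Angpt2, 13 of 20 of Lipg and all 8 of Car3.

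Rgcc, Btnl9 and Meox2, genes of the capillary list, were lower under the knockout label in both pairs as well, with ratios for Rgcc of -1.15 (-1.43 to -0.87) and -1.64 (-2.73 to -0.64). Of 13 capillary genes, 0 were higher and 4 lower in normocholesterolemic mice, where 6.47% of all genes were lower, and 0 were higher and 5 lower with atherosclerosis, where 15.8% were, with medians of -0.77 and -0.77. The share of capillary endothelial-like cells was lower in the knockout-labelled library of each pair too, with overlapping intervals. Within capillary endothelial-like cells the ratios were -0.30 (-0.59 to -0.01) and -1.17 (-2.26 to -0.17) for Rgcc and -0.32 (-0.98 to 0.30) and -0.92 (-2.33 to 0.35) for Btnl9, and in those with Gpihbp1 -0.25 (-0.55 to 0.04) and -0.48 (-1.57 to 0.52) for Rgcc and -0.28 (-0.94 to 0.35) and -0.20 (-1.62 to 1.09) for Btnl9. Meox2 had 49, 16, 6 and 0 UMIs in capillary endothelial-like cells, with a normocholesterolemic ratio of -0.42 (-1.33 to 0.42). None of these genes met the criterion within the sub-cluster.

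For the other gene groups, the shares of all genes were 8.94% higher and 6.47% lower in the normocholesterolemic and 12.4% and 15.8% in the atherosclerotic pair. Of them, 1 higher and 3 lower of 19 arterial genes were found under the knockout label in the normocholesterolemic pair, and 0 higher and 4 lower in the atherosclerotic pair. In the same order of pairs, lipid-handling genes gave 1 higher and 1 lower and 1 higher and 1 lower of 13, and adhesion and chemokine genes 5 higher and 1 lower and 4 higher and 3 lower of 15, with Selp higher in both. Haemostasis genes gave 3 higher and 0 lower and 4 higher and 4 lower of 12. Interferon and MHC class I genes gave 4 higher and 0 lower and 0 higher and 2 lower of 15, and immediate early and heat shock genes 0 higher and 4 lower and 4 higher and 0 lower of 15. Genes used to follow endothelial-to-mesenchymal change gave 0 higher and 1 lower and 4 higher and 1 lower of 11, with none in the same direction in both. In groups of this size a few genes are past the fold at those shares of all genes, and nothing particular to a group is read from its count. The leukocyte gene S100a9 was lower under the knockout label in both pairs, with 13, 3, 6 and 0 UMIs.

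Within the sub-clusters, few of these genes met the criterion again. In arterial endothelial-like cells, 3 (0.112% of 2683) were higher and 6 (0.224%) lower under both knockout labels. Meg3, a noncoding RNA, stood at 67.9, 714, 10.5 and 893 CPM from 8, 54, 1 and 45 UMIs, with ratios of 3.39 (2.31 to 4.68) and 6.40 (3.85 to 11.74), and 1 cell held 14.8% of the UMIs. Both knockout-labelled libraries lay above both flox libraries, while the ratios in all other kept cells were 0.25 and -0.18. Over all endothelial cells Meg3 gave 2.38 (1.87 to 2.92) and -0.16 (-0.79 to 0.48). Syne1, a nuclear envelope protein (4, 13, 5 and 13 UMIs), and Stmn2, a microtubule regulator (16, 23, 10 and 14 UMIs), were the other higher genes. Nupr1, a stress-induced nuclear protein, stood at 1349, 225, 833 and 278 CPM from 159, 17, 79 and 14 UMIs, with ratios of -2.59 (-3.40 to -1.86) and -1.58 (-2.52 to -0.75), and the heat shock gene Hspa1b at 1137, 291, 579.7 and 179 CPM from 134, 22, 55 and 9 UMIs, with ratios of -1.97 (-2.69 to -1.31) and -1.70 (-2.90 to -0.67). Igfbp7 stood at 628, 212, 274 and 99.2, Fn1 (fibronectin) at 492, 238, 727 and 278 and Gm26802 at 238, 26.4, 285 and 79.4 CPM, and Cd74 had 20, 2, 30 and 3 UMIs. Cd74 was the only one of these 9 genes that also met the criterion over all endothelial cells, and 27 of 30 of its UMIs in the atherosclerotic Nrf2flox/flox library came from 1 cell, without which 3 were left against 3. Of the 9 genes, Meg3 alone kept its call whichever of these single cells was left out. Without 1 cell of the atherosclerotic Nrf2flox/flox library, the second ratio of Nupr1 was -0.80 (-1.80 to 0.12) and that of Hspa1b -0.51 (-1.81 to 0.66).

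In capillary endothelial-like cells, 3 (0.201% of 1491) were higher and 4 (0.268%) lower. Icam1 stood at 287, 54.7, 538 and 45.7 CPM from 48, 4, 14 and 1 UMIs, with ratios of -2.39 (-4.32 to -0.94) and -3.56 (-8.96 to -0.84), and the metallothionein Mt1, which binds zinc and copper, at 496, 41.0, 385 and 45.7 CPM from 83, 3, 10 and 1 UMIs, with ratios of -3.59 (-5.90 to -2.0) and -3.07 (-8.51 to -0.26). Both were lower under both knockout labels, but the call of Mt1 ended without 1 cell of the atherosclerotic Nrf2flox/flox library, with -2.62 (-8.14 to 0.42) for the second ratio, and leaving out single cells ended those of Car3 and of the 3 higher genes as well. Over all endothelial cells Icam1 was at 0.13 (-0.31 to 0.58) in the normocholesterolemic pair. Car3 and Rpl22l1 were lower as well, with 66, 8, 8 and 0 and 70, 14, 16 and 3 UMIs. Gm42418 was higher, at 9127, 36280.1, 35764 and 85369.8 CPM, together with Mtdh (26, 24, 0 and 8 UMIs) and Tpm1 (tropomyosin 1; 37, 33, 8 and 33 UMIs). The atherosclerotic libraries held 8 and 5 of these cells. In the cells of the sub-cluster with Gpihbp1, 3 genes were higher and 1 lower, and of the genes above Gm42418 and Icam1 were among them. Icam1 had 48, 4, 14 and 0 UMIs there, and its call ended without 1 cell of the atherosclerotic Nrf2flox/flox library. For Gm42418, 1 cell held 809 of 1869 UMIs of the atherosclerotic library labelled Nrf2Cdh5tKO, and without it the second ratio was 0.90 (0.77 to 1.03) in the whole sub-cluster and -0.23 (-0.45 to -0.02) in the cells with Gpihbp1.

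**Figure D4:**
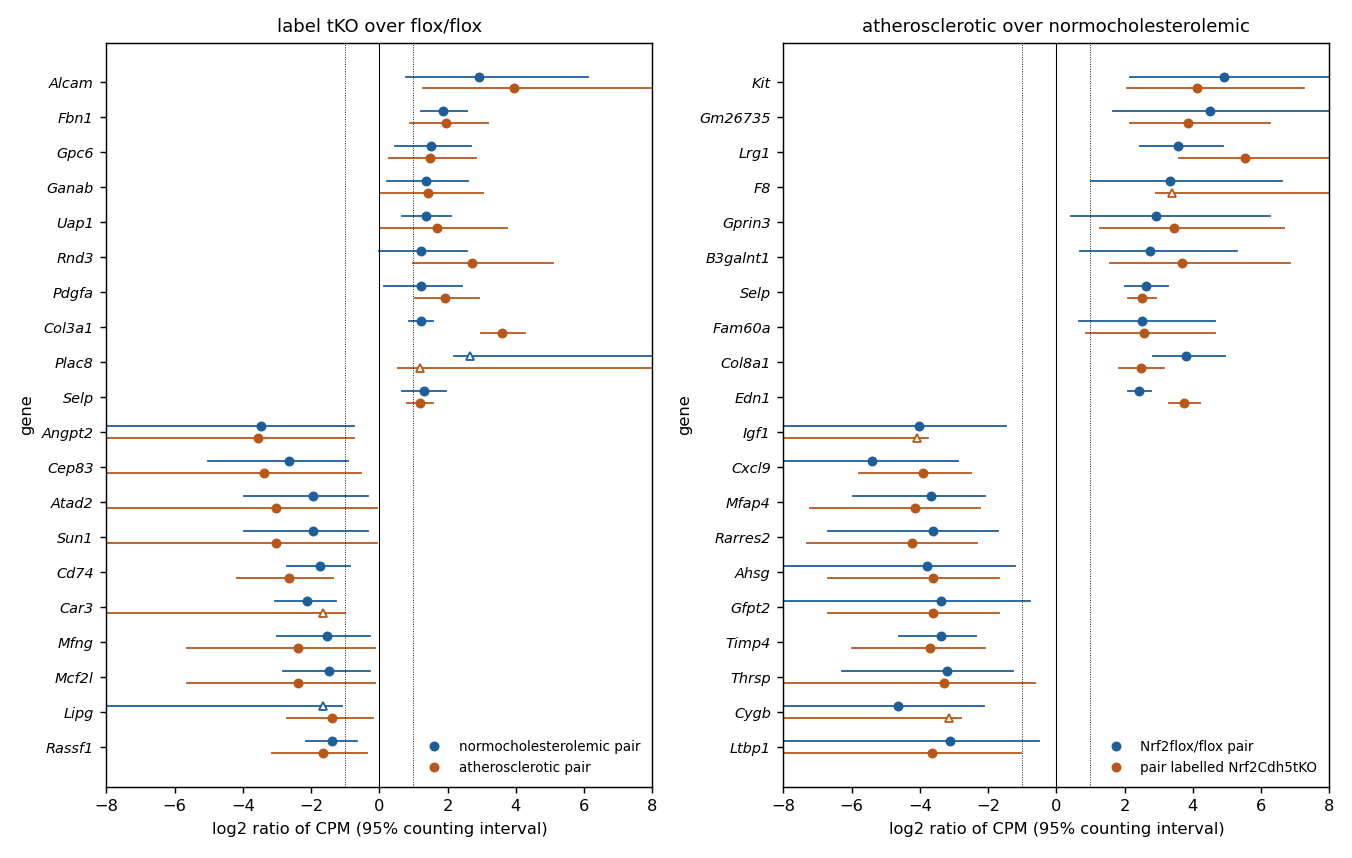
Log2 ratios of CPM in all endothelial cells for the genes named in the genotype (left) and diet (right) comparisons, each in its 2 pairs of libraries (blue and orange points, lines are 95% counting intervals, clipped at the axis; open triangles are bounds against a library with 0 UMIs). Dotted lines mark log2 ratios of -1 and 1. Every named gene lies past the same dotted line in both pairs, with Edn1 at 2.43 and 3.75 and Angpt2 at -3.47 and -3.55.

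The diet comparison set atherosclerotic against normocholesterolemic libraries within each label and shares its libraries with the genotype comparison. Single pairs gave 778 higher (12.2%) and 952 lower genes (14.9%) for Nrf2flox/flox, and 623 (9.76%) and 1221 (19.1%) for the knockout label. In both pairs, 85 genes (1.34% of 6355) were higher and 118 (1.86%) lower, with both intervals leaving out 0. Leaving out single cells as above ended 56 of the calls of higher and 47 of those of lower genes. Without the Sele and Inhba sub-cluster, 45 genes were higher and 55 lower, and 25 of the 85 higher and 45 of the 118 lower genes were among them. The median ratio of all genes was -0.03 for Nrf2flox/flox and -0.13 for the knockout label.

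Edn1, the vasoconstrictor endothelin-1, stood at 298, 156, 1606 and 2097 CPM from 110, 49, 236 and 360 UMIs. Both atherosclerotic libraries lay above both normocholesterolemic ones, with log2 ratios of 2.43 (2.10 to 2.77) and 3.75 (3.32 to 4.21) and at most 15.9% of the UMIs in 1 cell. No single cell ended its call. In all other kept cells the ratios were 0.86 and 0.49. Within arterial endothelial-like cells, Edn1 stood at 492, 423, 1307 and 3056 CPM, with ratios of 1.41 (0.95 to 1.89) and 2.85 (2.30 to 3.45). There, 1 cell held 92 of 154 UMIs of the atherosclerotic library labelled Nrf2Cdh5tKO, without which its level was 1362 CPM and the ratio 1.69 (1.05 to 2.35). Ednrb, the receptor that clears endothelin, was lower in both atherosclerotic libraries, with 55, 32, 0 and 1 UMIs. It did not meet the criterion without the Sele and Inhba sub-cluster, nor within arterial or capillary endothelial-like cells.

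Lrg1, a secreted glycoprotein that modulates TGF-beta signalling, stood at 21.7, 6.36, 259 and 291 CPM from 8, 2, 38 and 50 UMIs, with ratios of 3.58 (2.46 to 4.89) and 5.52 (3.59 to 8.60), against 1.80 and 1.23 in all other kept cells. In arterial endothelial-like cells it had 0, 0, 28 and 16 UMIs, although 1 cell held 52.3% of them. Selp stood at 83.9, 207, 517 and 1177 CPM as above, with diet ratios of 2.62 (2.00 to 3.28) and 2.51 (2.10 to 2.94), against 2.02 and 2.90 in all other kept cells. The same ratios of Selp within arterial endothelial-like cells were 1.28 (0.56 to 2.04) and -0.29 (-1.20 to 0.58), so that the second turned sign. The values of Selp without the Sele and Inhba sub-cluster were 2.46 (1.73 to 3.21) and 0.83 (-0.00 to 1.62), which ended the call. Col8a1, a short-chain collagen of the vessel wall, stood at 27.1, 85.9, 381 and 478 CPM from 10, 27, 56 and 82 UMIs, with ratios of 3.82 (2.83 to 4.95) and 2.48 (1.83 to 3.16), and in arterial endothelial-like cells at 33.9, 52.9, 527 and 357 CPM. F8, coagulation factor VIII, had 2, 0, 8 and 17 UMIs, and Kit, a receptor tyrosine kinase, 1, 2, 12 and 19. Gprin3, B3galnt1, Fam60a and Gm26735, each at 22 to 37 UMIs in all, completed the 10 genes. The calls of Edn1, Lrg1, Selp, Col8a1 and Gm26735 were met whichever single cell was left out, whereas those of the other 5 ended. Of these, Edn1, Lrg1 and Col8a1 also met the criterion without the Sele and Inhba sub-cluster, and Selp and Gm26735 did not. For Kit, 11 of 12 UMIs of the atherosclerotic Nrf2flox/flox library lay in 1 cell. Among the arterial endothelial-like cells, 1 cell held 14 of 18 UMIs of Col8a1 in the atherosclerotic library labelled Nrf2Cdh5tKO, and the second ratio without it was 0.73 (-1.69 to 3.16).

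Genes of the arterial list belonged to this set. Fbln5, which assembles elastic fibres, stood at 236, 130.4, 1150.2 and 926 CPM from 87, 41, 169 and 159 UMIs, with ratios of 2.29 (1.91 to 2.68) and 2.83 (2.33 to 3.36) against -0.06 and -0.15 in all other kept cells. In arterial endothelial-like cells it stood at 475, 52.9, 1676 and 1687 CPM and held the ratios 1.82 (1.37 to 2.28) and 4.99 (3.59 to 6.90). Clu stood at 1132, 1301, 5084 and 3781 CPM from 418, 409, 747 and 649 UMIs, with ratios of 2.17 (1.99 to 2.34) and 1.54 (1.36 to 1.72) and Mecom, a transcription factor of arterial endothelium, at 100.2, 127, 218 and 344 CPM from 37, 40, 32 and 59 UMIs. Plvap, which forms the diaphragms of fenestrae and caveolae, stood at 135, 289, 647 and 641 CPM from 50, 91, 95 and 110 UMIs, with ratios of 2.26 (1.75 to 2.78) and 1.15 (0.73 to 1.56), and Fn1, fibronectin, at 289.7, 442, 1314 and 2004 CPM from 107, 139, 193 and 344 UMIs, with ratios of 2.18 (1.83 to 2.54) and 2.18 (1.89 to 2.48). Il6st, the shared receptor of interleukin-6 cytokines, was higher too, at 206, 349.8, 579 and 717 CPM from 76, 110, 85 and 123 UMIs. Fbln5, Clu and Fn1 kept their calls whichever single cell was left out, although that of Fn1 was not met without the Sele and Inhba sub-cluster. Those of Plvap, Mecom and Il6st ended without 1 cell, with 0.56 (0.06 to 1.04) for the second ratio of Plvap. Within arterial endothelial-like cells, the ratios of Fn1 were only 0.56 (0.04 to 1.09) and 0.22 (-0.90 to 1.31). Clu, Mecom, Plvap, Fn1 and Il6st were not among the genes that met the criterion within those cells.

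Igf1, described below, led the genes lower in both atherosclerotic libraries. Next came Cxcl9, a chemokine induced by interferon-gamma, at 287, 347, 6.81 and 23.3 CPM from 106, 109, 1 and 4 UMIs. Its ratios were -5.40 (-10.72 to -2.89) and -3.89 (-5.80 to -2.50). All of its 193 UMIs outside the sub-cluster with fibroblast genes came from capillary endothelial-like cells, in which it stood at 633, 1122, 38.5 and 183 CPM. Its ratios in all other kept cells were -2.24 and -3.94. Timp4 stood at 563, 226, 54.4 and 17.5 CPM from 208, 71, 8 and 3 UMIs over all and at 1242, 793, 308 and 137 CPM in capillary endothelial-like cells, with ratios there of -2.01 (-3.24 to -1.01) and -2.53 (-4.85 to -0.91), or -2.13 (-3.46 to -1.06) and -1.86 (-4.17 to -0.24) in the cells with Gpihbp1. In the latter its call ended without 1 cell of the normocholesterolemic library labelled Nrf2Cdh5tKO, with -1.57 (-3.90 to 0.08) for the second ratio. Thrsp, a regulator of fatty acid synthesis, stood at 125, 57.2, 13.6 and 5.83 CPM from 46, 18, 2 and 1 UMIs. Ahsg, the plasma protein fetuin-A made by the liver, stood at 94.8, 143, 6.81 and 11.7 CPM from 35, 45, 1 and 2 UMIs, with 41.0% of its UMIs in 1 cell, and its call ended when 1 cell was left out, as did that of Igf1.

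The other genes of the 10 were Igf1, Mfap4, Rarres2, Gfpt2, Cygb and Ltbp1. Igf1, an insulin-like growth factor that fibroblasts make, had 41, 94, 1 and 0 UMIs, and 127 of 136 came from the sub-cluster with fibroblast genes. Mfap4, a microfibril protein, had 96, 65, 3 and 2 UMIs, Rarres2, the chemoattractant chemerin, had 62, 69, 2 and 2, and Cygb, cytoglobin, had 63, 49, 1 and 0. All were rare or absent in the atherosclerotic libraries. Gfpt2, an enzyme of hexosamine synthesis, had 26, 45, 1 and 2 and Ltbp1, which anchors latent TGF-beta, 22, 23, 1 and 1. The sub-cluster with fibroblast genes held cells of the normocholesterolemic libraries and none of the atherosclerotic ones. Of the fibroblast markers, Lum, Col1a2, Pdgfra and Gsn were lower in both atherosclerotic libraries. Without the sub-cluster with fibroblast genes, 95 genes were higher and 101 lower, and Cxcl9, Ahsg, Timp4 and Thrsp led those that were lower. Igf1, Mfap4, Rarres2, Gfpt2, Cygb and Ltbp1 were not among these 101 genes, so their calls ended. The same held for Lum, Col1a2 and Pdgfra, while Gsn stayed among them. Without the Sele and Inhba sub-cluster, Ahsg, Thrsp and Ltbp1 did not meet the criterion, and the other 7 of the 10 did.

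**Figure D5:**
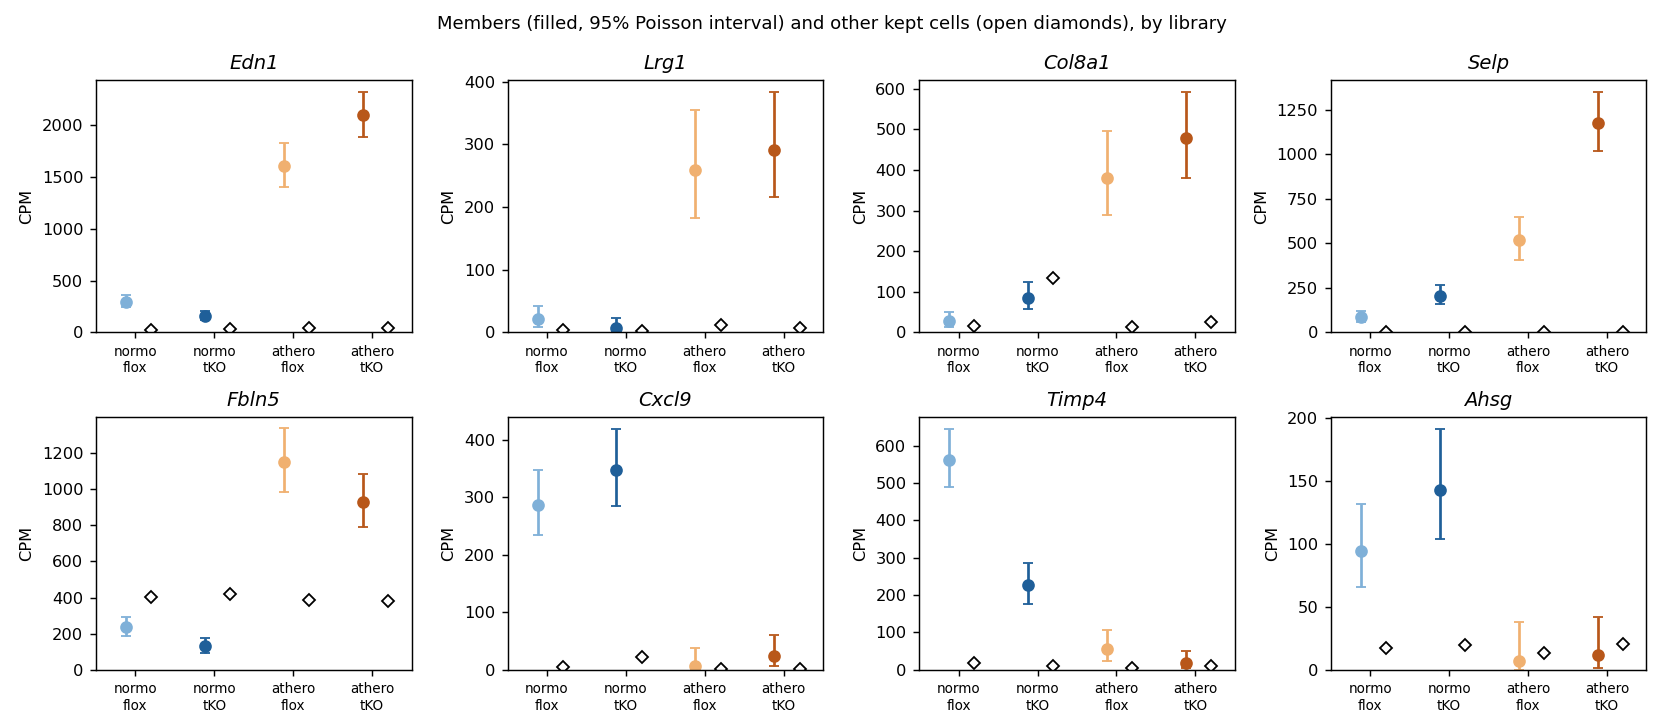
Levels of 8 genes in each library, in CPM of summed UMIs: filled points are endothelial cells with 95% Poisson intervals, open diamonds all other kept cells. Edn1 stood at 298, 156, 1606 and 2097 CPM and Timp4 at 563, 226, 54.4 and 17.5 CPM in the endothelial cells of the 4 libraries.

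Gene groups differed between diets as follows, beside the shares of all genes given above. Of 13 capillary genes, 0 were higher and 10 lower for Nrf2flox/flox and 0 were higher and 9 lower for the knockout label, with medians of -1.37 and -1.39. Rgcc, Gpihbp1, Cd36, Fabp4, Aqp1, Cd300lg, Btnl9 and Meox2 passed in both. Without the Sele and Inhba sub-cluster, Rgcc and Aqp1 alone of these met the criterion, and within capillary endothelial-like cells Aqp1 alone. Of 19 arterial genes, 8 were higher and 3 lower for Nrf2flox/flox, and 4 were higher and 3 lower for the knockout label. The arterial list summed to 3227, 3727, 9671 and 7154 CPM and the capillary list to 29328, 16573, 8575 and 6531 CPM. Clu and Fbln5 gave much of the arterial sum, and the other 18 genes summed to 1860.1, 2296, 3437 and 2447 CPM. Under the knockout label the median ratio of the arterial genes was 0.22. Within each label, the share of arterial endothelial-like cells was higher and that of capillary endothelial-like cells lower with atherosclerosis, with overlapping intervals. Of 7 venous genes, 3 higher and 1 lower were found for Nrf2flox/flox, and 4 higher and 1 lower for the knockout label, with Selp, Lrg1 and Il6st higher in both.

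Of 13 lipid-handling genes, 2 were higher and 7 lower for Nrf2flox/flox and 2 were higher and 5 lower for the knockout label, with Cd36, Fabp4, Fabp5 and Gpihbp1 lower in both. Of 16 junction and caveola genes, 0 higher and 3 lower were found for Nrf2flox/flox, and 0 higher and 6 lower for the knockout label, with Cldn5 and Jam2 lower in both. Without the Sele and Inhba sub-cluster, none of the lipid-handling and junction genes named here met the criterion. Of 15 immediate early and heat shock genes, which respond to tissue dissociation, 0 higher and 12 lower were found for Nrf2flox/flox, and 1 higher and 1 lower for the knockout label. The list summed to 21863, 14073, 10127 and 12153 CPM and was highest in the normocholesterolemic Nrf2flox/flox library. Of 15 interferon and MHC class I genes, 1 higher and 3 lower were found for Nrf2flox/flox, and 0 higher and 8 lower for the knockout label, with Isg15 lower in both at 176, 270.3, 68.1 and 58.3 CPM from 65, 85, 10 and 10 UMIs. For the Nrf2 list the counts were 0 higher and 4 lower for Nrf2flox/flox and 0 higher and 4 lower for the knockout label.

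In the same order of labels, adhesion genes gave 4 higher and 1 lower and 4 higher and 2 lower of 15, with Selp higher in both. Haemostasis genes gave 4 higher and 0 lower and 4 higher and 4 lower of 12, with F8 and Selp among those higher in both, vascular tone genes 3 higher and 2 lower and 1 higher and 2 lower of 11, and flow-responsive genes 2 higher and 3 lower and 3 higher and 5 lower of 14. Edn1 was higher and Ednrb and Slc9a3r2, an adaptor of ion exchangers, were lower in both pairs. Receptors of VEGF, angiopoietins and TGF-beta gave 0 higher and 5 lower and 0 higher and 3 lower of 17, with Kdr lower in both. The calls of Ednrb, Slc9a3r2 and Kdr were not met without the Sele and Inhba sub-cluster. Genes used to follow endothelial-to-mesenchymal change gave 2 higher and 1 lower and 4 higher and 1 lower of 11, with Fn1 higher in both. Lymphatic genes summed to 282, 458, 74.9 and 93.2 CPM and endocardial genes to 276, 712, 483 and 134 CPM, with Prox1 at 13, 11, 0 and 0 and Npr3 at 21, 67, 0 and 0 UMIs.

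Within arterial endothelial-like cells, 12 genes (0.456% of 2634) were higher and 8 (0.304%) lower in both atherosclerotic libraries. Besides Col8a1, Fbln5, Edn1 and Lrg1, the higher genes were Sox17 (50.9, 39.7, 189.7 and 238 CPM), Slc38a2, an amino acid transporter (280.0, 238, 801 and 1607 CPM), Cald1, which binds actin (119, 185, 379 and 456 CPM), Col5a2 (246, 238, 601 and 496 CPM), Uggt1, Myzap, Fuca1 and Creb3l2. For Slc38a2 the ratios were 1.52 (0.91 to 2.15) and 2.76 (2.01 to 3.58). The lower genes included Plpp3, a lipid phosphatase of the endothelium known as a locus of coronary artery disease, at 339, 212, 84.3 and 39.7 CPM from 40, 16, 8 and 2 UMIs, with ratios of -2.01 (-3.32 to -0.89) and -2.41 (-5.58 to -0.33), of which 1 cell held 33.3%. Klk8, Ptprr, Cyb5a, Atp1b3, Uqcr11, Cops9 and Gm10076 were the others. Of these 20 genes, 11 also met the criterion over all endothelial cells. Whichever single cell was left out, Cald1, Edn1, Fbln5, Slc38a2 and Sox17 of the higher and Gm10076 of the lower genes kept their calls. That of Plpp3 did not, at -1.0 (-2.41 to 0.28) without 1 cell of the normocholesterolemic Nrf2flox/flox library, nor did that of Col5a2, whose second ratio became -0.27 (-1.60 to 0.96).

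Within capillary endothelial-like cells, 10 (0.419% of 2388) were higher and 10 (0.419%) lower. Fn1 stood at 35.8, 13.7, 846 and 365 CPM from 6, 1, 22 and 8 UMIs, with ratios of 4.56 (3.21 to 6.15) and 4.74 (1.84 to 10.21) and Lpl, lipoprotein lipase, at 645, 506, 1615 and 1142 CPM from 108, 37, 42 and 25 UMIs, with ratios of 1.32 (0.77 to 1.85) and 1.17 (0.38 to 1.94). Clu had 4, 1, 8 and 38 UMIs and Bgn, a small proteoglycan, 12, 8, 9 and 13, with Ctgf, Timp2, Prrc2c, Slc6a6, Dstn and Gm42418 as the other higher genes. Aqp1, a water channel, stood at 2539, 1902, 884 and 137 CPM from 425, 139, 23 and 3 UMIs, with ratios of -1.52 (-2.19 to -0.92) and -3.79 (-6.09 to -2.22). The other lower genes included Hspa1a, Hspa1b and Hsp90aa1, which are on the immediate early and heat shock list, and Dnaja1 and Hsp90ab1, which are not. Hsp90ab1, a chaperone, stood at 4289, 4350.3, 1846 and 1781 CPM from 718, 318, 48 and 39 UMIs, with ratios of -1.22 (-1.67 to -0.79) and -1.29 (-1.81 to -0.81). Hspa1a gave -2.29 (-3.62 to -1.22) and -2.40 (-3.64 to -1.38), and Hspa1b -1.23 (-2.13 to -0.46) and -1.57 (-2.56 to -0.71). In all other kept cells Hsp90ab1 gave -0.45 and -0.04, Hspa1a -1.63 and -0.05, and Hspa1b -1.44 and -0.01. Tcim, Timp4 and Cxcl9 were among the remaining lower genes. In the cells with Gpihbp1, 3 genes were higher and 8 lower, of which 3 (Lpl, Dstn and Gm42418) and 7 (Aqp1, Cxcl9, Timp4, Hspa1a, Hspa1b, Hsp90aa1 and Hsp90ab1) were the same genes. Clu had 4, 1, 8 and 0 and Fn1 6, 1, 22 and 0 UMIs there, since all 38 and 8 UMIs of the atherosclerotic library labelled Nrf2Cdh5tKO came from the 2 cells without Gpihbp1. The ratios in the cells with Gpihbp1 were 1.37 (0.81 to 1.90) and 1.85 (1.06 to 2.62) for Lpl, -1.44 (-2.11 to -0.84) and -3.70 (-6.76 to -1.82) for Aqp1 and -1.20 (-1.66 to -0.77) and -1.15 (-1.79 to -0.57) for Hsp90ab1, and these calls were met there whichever single cell was left out, while those of Dstn and Gm42418 were not. In the whole sub-cluster, leaving out single cells ended 9 of the 10 calls of higher genes, Lpl, Fn1 and Clu included, and Prrc2c kept its call; the second ratio of Lpl without 1 cell of the atherosclerotic library labelled Nrf2Cdh5tKO was 0.69 (-0.34 to 1.64). No gene met the diet criterion in both the arterial and the capillary endothelial-like cells.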

How the data were processed

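The deposited files hold UMI counts per gene and barcode, 1 matrix for each of 4 libraries, made by the authors with Cell Ranger 6.1.2 on mm10, per the submitters' processing notes; the counts are neither normalized nor merged, and come from a 10x 3′ kit. From them, barcodes holding between 200 and 6000 genes were kept if mitochondrial genes gave no more than 15% of UMIs, and endothelial cells selected on the UMIs of Cdh5, Pecam1, Ptprc, Csf1r and Myh11. Summed UMIs of each library were divided by its endothelial total and scaled to 1000000 (CPM), with exact Poisson 95% intervals. Ratios are log2 ratios of CPM with exact intervals from the binomial split, for genes with 20 or more UMIs summed over the endothelial cells. The interval calculation was tested on simulated data. No test between groups was made, since each group had 1 library. A gene was counted past the fold at a log2 ratio of at least 1 in size. Members were clustered on values centred by library (1000 variable genes, 15 principal components, 10 neighbours, resolution 0.5). Neighbours came from scikit-learn 1.9.0, and the graph was split with igraph 0.11.9 and leidenalg 0.10.2. Scrublet, in scanpy 1.11.5, was run in each library, and no cell was removed on its calls. Shares have Clopper-Pearson intervals (scipy 1.17.1). Promoter windows came from RefSeq, gene positions from the mm10 annotation. The members and the gene lists were chosen with earlier results of these data known. Named genes were, for each list, up to 4 with the most UMIs and those past the fold in both pairs of a comparison; the 25 leading genes against other cells (100 or more UMIs, detected in at least 20% of the endothelial cells of every library); the 6 leading genes of each sub-cluster; up to 10 genes per direction past the fold in both pairs with both intervals leaving out 0 and no cell holding over 50% of the UMIs; and Nfe2l2, Nqo1 and Gclm. Other genes were named after their values were seen. The insert of the viral vector and a few genes that these rules name are not reported here; such genes stay in the counts. Alternatives covered the Pecam1 minimum, mitochondrial limit, doublets, weight of cells, deepest cells, scaling, gene minimum, resolution and, chosen after seeing the data, single sub-clusters, capillary endothelial-like cells with Gpihbp1, leaving out the sub-cluster with fibroblast genes or the Sele and Inhba sub-cluster, and leaving out the cell with the most UMIs of a gene in each library in turn.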

Additional observations from a re-analysis of the deposited data

Results flagged for a closer look

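In 8 genes of the lists, the log2 ratio between the knockout and the flox label passed 1 in size in opposite directions in the normocholesterolemic and the atherosclerotic pair. The difference between the pairs was not tested, since each rests on 1 library per group. Bmx, a kinase of arterial endothelium, gave 1.28 and -1.65 in that order, Cgnl1, a junction protein, 1.50 and -1.76, and Procr, the receptor of protein C, 1.31 and -1.08. Pi16 gave 1.90 and -1.16, and the interferon-induced Rsad2 2.14 and -1.92. The other 3 were lower in the first pair and higher in the second. The flow-responsive Klf2 gave -1.27 and 1.26, the heat shock gene Hspa1a -1.11 and 1.03, and Tagln, a smooth muscle gene, -1.07 and 2.62, with 89 of 290 UMIs in 1 cell.

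Between diets, 5 genes of the lists passed a log2 ratio of 1 in size in opposite directions in the Nrf2flox/flox pair and the pair labelled Nrf2Cdh5tKO, again with no test of the difference. Mmrn2, a matrix protein of endothelium, gave 1.10 and -1.30, Cgnl1 1.47 and -1.80, and Rsad2 1.45 and -2.62. Angptl4, an inhibitor of lipoprotein lipase, gave -1.19 and 1.37, and Dnajb1, a co-chaperone, -1.36 and 1.07. Cgnl1 had 58, 140, 64 and 22 UMIs and Rsad2 12, 45, 13 and 4, so that their appearance in both comparisons rests on the same libraries.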

How the results depend on the processing

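No test between groups, paired or not, was made, since each group had 1 library. With 18 to 63 cells in a library, depth limits what genes of few UMIs can show. The number of genes higher under both knockout labels was 19 and became 51 with cells of 1 UMI of Pecam1 or more, 11 with cells weighted equally, 8 without the deepest cell of each library and 10 without the sub-cluster with fibroblast genes. Without the Sele and Inhba sub-cluster, 4 were higher and 4 lower by genotype and 45 higher and 55 lower by diet. The 19 lower ones became 10 among genes with 50 or more UMIs. Genes lower in both atherosclerotic libraries went from 118 to 71 with cells weighted equally. Within arterial endothelial-like cells, which test fewer genes in fewer cells, the counts were 3 higher and 6 lower by genotype and 12 higher and 8 lower by diet, and within capillary endothelial-like cells 3, 4, 10 and 10, or 3, 1, 3 and 8 in those with Gpihbp1. The normocholesterolemic ratio of Nfe2l2, 1.14, was 0.98 with cells weighted equally, 0.90 without the Sele and Inhba sub-cluster and 0.57 within capillary endothelial-like cells (0.61 in those with Gpihbp1). The atherosclerotic one, 0.90, passed 1 at 1.07 with 1 UMI of Pecam1 or more, 1.38 with cells weighted equally, 1.22 without the deepest cells and 1.19 without the cell of the atherosclerotic Nrf2flox/flox library that held most Nfe2l2. The causes of these shifts were not tested.

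Of 1023 alternative values for the 80 ratios of the genes named over all endothelial cells, 860 kept direction and side of the fold, 137 kept direction only and 26 changed direction. Gpc6 turned to -0.95 in the atherosclerotic genotype pair without the deepest cells. Without the sub-cluster with fibroblast genes, Uap1 turned to -0.0862 and Col3a1 to -1.36 in the normocholesterolemic pair. Without the Sele and Inhba sub-cluster, Ganab turned to -0.258, Col3a1 to -2.58 and Selp to -0.48 in the atherosclerotic pair, and Ahsg to 0.83 between diets under the knockout label. Within arterial endothelial-like cells, the normocholesterolemic ratios were -0.23 for Fbn1, -0.0380 for Gpc6 and -2.45 for Col3a1, the atherosclerotic ones -1.67 for Col3a1 and -0.53 for Selp, and the diet ratio of Selp under the knockout label -0.29. Within capillary endothelial-like cells, they were -0.13 for Ganab, -1.13 for Uap1 and -1.47 for Col3a1 in the normocholesterolemic pair, -1.17 for Col3a1 and 0.66 for Rassf1 in the atherosclerotic pair, and 0.36 for Mfap4 between diets in Nrf2flox/flox. In those with Gpihbp1, these values were -0.0823, -1.08, -1.42 and -0.52 for the first 4 and 0.44 for Mfap4. Without the cell that held most of the gene in a library of the atherosclerotic pair, Gpc6 turned to -0.88 and Lipg to 0.0143. No setting that changed the mitochondrial limit, left out called doublets, asked for 3 UMIs of Pecam1, centred the median ratio or changed the resolution moved a count of cells or genes, or a ratio of Nfe2l2, past its limit. Of the ratios of named genes, 4 kept direction only under the lower mitochondrial limit, 1 with 3 UMIs of Pecam1 and 1 with the centred median.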

Other observations

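The sub-cluster with fibroblast genes held cells of the normocholesterolemic libraries alone, so leaving it out takes matrix transcripts from that side of the diet comparison, while cells rich in Dcn stay in on the other: Dcn stood at 1399.8, 639.9, 1096 and 3327 CPM in the remaining endothelial cells. Over all endothelial cells, the log2 ratios between diets were 2.37 (1.47 to 3.33) and 3.02 (2.39 to 3.71) for Vcan and 3.01 (1.49 to 4.81) and 2.15 (1.22 to 3.17) for Mmp14, and the following values without the sub-cluster follow in part from its removal. Vcan, the proteoglycan versican, stood at 3.17, 0, 225 and 647 CPM from 1, 0, 33 and 111 UMIs in the remaining endothelial cells, with log2 ratios of 6.15 (3.57 to 11.49) and at least 5.47. Mmp14, a membrane metalloproteinase, stood at 9.50, 24.2, 109 and 198 CPM from 3, 5, 16 and 34 UMIs, with 3.52 (1.71 to 5.94) and 3.03 (1.67 to 4.74). Frzb, a Wnt antagonist, had 2, 1, 9 and 17 UMIs, Il13ra1, a receptor chain of interleukin-13, 2, 1, 8 and 14, and Mdk, the growth factor midkine, 2, 3, 11 and 21, of which 1 cell held 48.6%. Among the lower genes, Sult1a1, a sulfotransferase, stood at 272, 169.7, 34.0 and 23.3 CPM from 86, 35, 5 and 4 UMIs, with -3.0 (-4.66 to -1.72) and -2.86 (-4.82 to -1.38), and Cd59a, which restrains complement, at 146, 126, 0 and 5.83 CPM from 46, 26, 0 and 1 UMIs, with at most -2.83 and -4.44 (-9.79 to -1.83). Gpr182, an endothelial chemokine scavenger, had 20, 13, 1 and 1 UMIs and Ednrb 54, 28, 0 and 1. The same cells gave Vcam1 ratios by genotype label of 1.04 (0.81 to 1.27) and 1.88 (1.62 to 2.16), from 275, 370, 143 and 617 UMIs. One cell held 204 of 370 UMIs of the normocholesterolemic library labelled Nrf2Cdh5tKO, and without it the first ratio was -0.02 (-0.30 to 0.27). Another cell, of the atherosclerotic library labelled Nrf2Cdh5tKO, held 23.2% of the 1405 UMIs of all libraries, so the second ratio rests in large part on it.

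Of the 20 most abundant genes of the endothelial cells, Gm42418, Fabp4 and Tm4sf1 stood above the other kept cells by a log2 ratio of 1 or more. The last, an endothelial tetraspanin-like protein, stood at 4133 CPM with a log2 ratio of 2.70.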
